A study of Mus musculus with 4 samples.

Results

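Genes that take up, store, export or recycle iron and heme, 10 in all, were followed across the immune cells of the mouse lung: Fth1, Ftl1, Hmox1, Slc40a1, Slc11a1, Tfrc, Blvrb, Slc48a1, Trf and Hfe. They were chosen by symbol, and each of the 10 matched 1 of the 31053 genes in the count matrices. The lungs of C57BL/6J mice, 10 weeks old, gave the live CD45.2+ cells. The WT group was 2 mice of genotype Lmna-flox/flox Vav1-cre-/-, and the knockout group was 2 mice of genotype Lmna-flox/flox Vav1-cre+/-, so both groups carried the floxed alleles of Lmna, the gene of lamins A and C. The Vav1 promoter makes Cre active throughout the blood lineage, and which exons of Lmna are floxed is not given in the labels. Each group had 2 single-cell libraries, made with a kit that counts the 3′ ends of messages. The p-values of genotype tests within a cell class measure the spread between these libraries. Those of the fits over several classes, for WT levels and for the difference of effects, do not. They measure the scatter of class sums that is left once library and class are fitted, and sums of the same library are not separate mice.

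Cells take up iron bound to transferrin (Trf) through the transferrin receptor (Tfrc), whose affinity is lowered by its partner Hfe. Ferritin, a shell of heavy chains (Fth1) and light chains (Ftl1), stores iron, and ferroportin (Slc40a1) is the exporter of iron from cells. Macrophages that digest red cells or cell debris move heme out of the lysosome with Slc48a1 and open it with heme oxygenase 1 (Hmox1). They pump metal out of the phagosome with Slc11a1. Blvrb encodes biliverdin reductase B. Alveolar macrophages are the resident macrophages of the air spaces and are known as iron-loaded cells.

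Ferritin, ferroportin and transferrin receptor messages are known targets of iron regulatory proteins, which bind a hairpin called the iron responsive element. The elements are shown here because they mark the members under this shared control. A search of whole protein-coding transcripts of GENCODE M21 on mm10 found such a hairpin in 4 of the 10 members, against 68 of 21877 genes (0.311%). A match anywhere in a transcript counted for the 68 genes, and all matches in the members lay in untranslated regions. The search took CAGTGN with A, C or T as the last base in the 6-base loop, an unpaired C before an upper stem of 5 pairs, and at least 3 of 5 pairs in the lower stem, with GU pairs allowed, on the transcript strand. Each 27-base element is written 5′ to 3′ with its loop in capitals.
Fth1, 5′ UTR, chr19:9982733-9982759, plus strand: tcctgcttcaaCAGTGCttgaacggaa
Ftl1, 5′ UTR, chr7:45459780-45459806, minus strand: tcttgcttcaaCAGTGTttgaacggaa
Slc40a1, 5′ UTR, chr1:45925466-45925492, minus strand: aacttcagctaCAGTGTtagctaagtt
Tfrc, 3′ UTR, chr16:32631220-32631246, plus strand: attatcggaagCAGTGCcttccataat
Tfrc, 3′ UTR, chr16:32631599-32631625, plus strand: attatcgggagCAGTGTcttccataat
Tfrc, 3′ UTR, chr16:32631664-32631690, plus strand: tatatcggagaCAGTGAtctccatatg
Tfrc, 3′ UTR, chr16:32631711-32631737, plus strand: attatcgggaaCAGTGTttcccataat
An element in the 5′ UTR is known to block translation when bound, and elements in the 3′ UTR are known to protect the message from decay. Message counts therefore do not read the protein output of Fth1, Ftl1 or Slc40a1. A match is a description of the letters, and no element outside this pattern was searched. Ftl1 (chr7:45457944-45459884, minus strand) overlaps Gm22133 on the same strand and Gm10252 on the other. Among the members with no match, Slc48a1 (chr15:97778520-97792692, plus strand) overlaps Hdac7 on the other strand and Trf (chr9:103204001-103230444, minus strand) overlaps Gm20425 on the same strand, so counts of these genes may be shared with their neighbours.

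The 4 libraries held 21780914 to 27045250 UMIs (unique molecule tags) over 3860 to 4322 cell barcodes, of which 15181 barcodes passed the filters. Cells were placed in classes by marker genes that include none of the 10 members, and 13302 cells took a class. Counts were summed per class and library, and a gene was called at an adjusted p under 0.05 (Benjamini-Hochberg, over all genes tested). There were 178 and 201 alveolar macrophages in WT and 48 and 24 in the knockout, so their knockout sums rest on 579475 and 399325 UMIs against 2869858 and 2683389. Of the barcodes, 27 were shared by 2 libraries. The library WT 2 stood apart in 1 class, with 452 T cell precursors against 17 to 41 in the others; these cells enter no test. Red cell RNA was near 0, with hemoglobin at no more than 0.000645% of UMIs in any library. Levels below are in CPM, the UMI count of a gene scaled to a fixed total over all UMIs of the class in 1 library. The kit counts 1 end per message, and levels were not divided by transcript length.

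Lmna, the targeted gene, was at 394 and 337 CPM in WT alveolar macrophages and at 55.2 and 92.7 in the knockout. This was a log2 fold change of -2.29 ± 0.20 (SE, 2 against 2 libraries; adjusted p = 1.23e-09) by edgeR's quasi-likelihood test. Lmna RNA was lower and still present; whether the counted message ends lie in the floxed part was not tested. In NK cells it also passed the test (log2 fold change -1.96 ± 0.42, adjusted p = 0.00491), and in B cells (-1.22 ± 0.31, adjusted p = 0.109) and T cells (-0.88 ± 0.29, adjusted p = 0.206) it did not. In classical monocytes it was not lower (0.30, adjusted p = 0.910 by edgeR), with means of 9.16 CPM in WT and 11.9 in the knockout. In neutrophils and nonclassical monocytes it was too low to be tested. Neutrophil means were 2.41 in WT and 7.03 in the knockout, with both knockout libraries above both WT libraries. Nonclassical monocyte means were 2.63 and 1.45, and the libraries overlapped. Levels were 14.4 CPM or less in neutrophils and monocytes and 10.6 or less in T cells, a weak check of the labels.

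The ferritin genes were the most abundant members and were highest in alveolar macrophages among the 7 classes with at least 20 cells in every library. Fth1 stood at 13871 and 15742 CPM in WT alveolar macrophages, followed by neutrophils at 6898 and 9569. Classical monocytes (3030 and 3668), nonclassical monocytes (2602 and 2819) and B cells (2458 and 2625) came next, and T cells (1052 and 1170) and NK cells (922 and 976) were lowest. Nonclassical monocytes and B cells overlapped in that order. Ftl1 stood at 7760 and 8850 in WT alveolar macrophages, and neutrophils (4674 and 4926), nonclassical monocytes (4576 and 4578) and classical monocytes (3867 and 4094) lay close together. B cells were at 879 and 973, and T and NK cells at 653 to 775, for Ftl1.

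**Figure D1:**
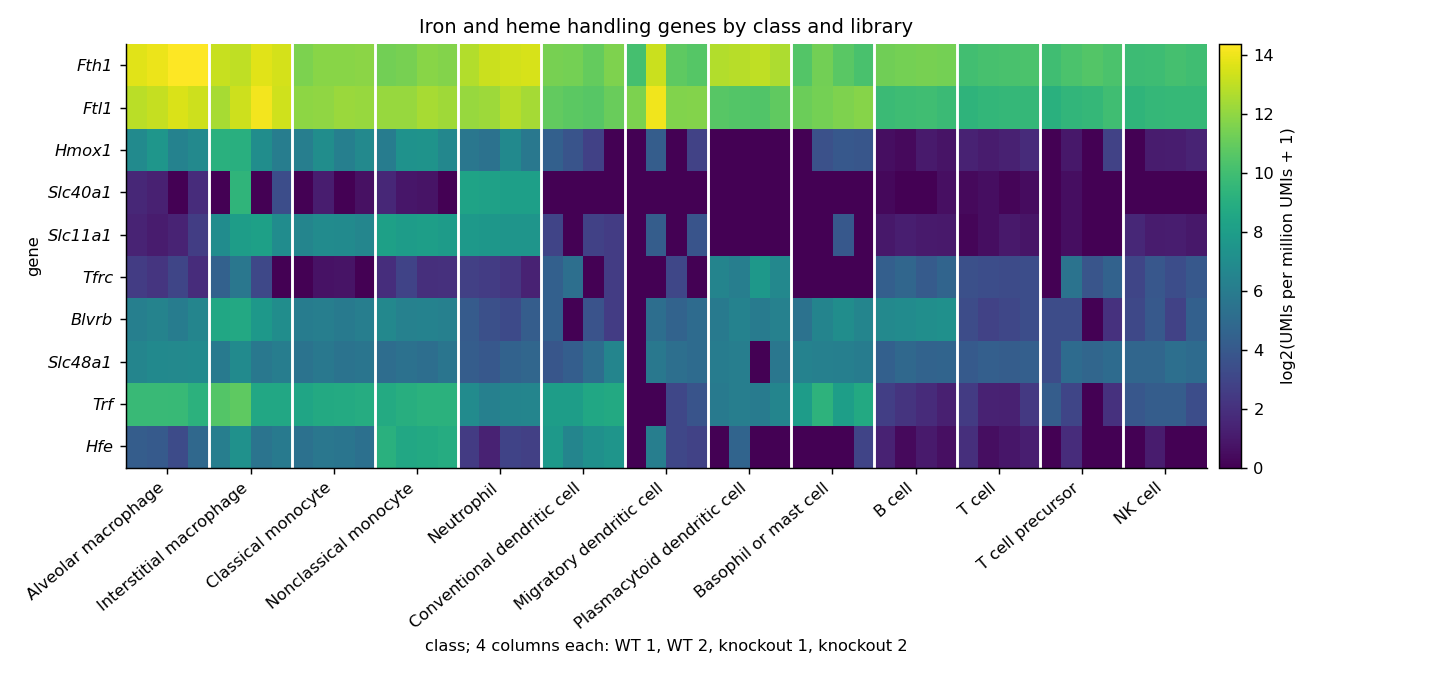
Level of the 10 genes as log2(CPM + 1), by class (x axis) and gene (y axis), with 4 columns per class for WT 1, WT 2, knockout 1 and knockout 2. Fth1 and Ftl1 are bright in every class, Slc40a1 is bright in neutrophils and Hfe in nonclassical monocytes. Trf is bright in macrophages, monocytes, basophils or mast cells and conventional dendritic cells. Classes with few cells, such as the 4 interstitial macrophages of WT 2, are uneven.

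The balance of the 2 chains differed between classes more than between libraries of most classes. The ratio of Fth1 to Ftl1 UMIs was 2.70 to 2.94 in B cells over the 4 libraries and 1.61 to 1.65 in T cells. It was 1.74 to 2.08 in alveolar macrophages and 1.26 to 1.41 in NK cells. Among the 7 classes, the 2 monocyte classes were those with more light than heavy chain UMIs: the ratio was 0.76 to 0.90 in classical and 0.57 to 0.65 in nonclassical monocytes. Neutrophils were spread widely, at 1.48 and 1.94 in WT and 1.44 and 2.10 in the knockout. Plasmacytoid dendritic cells, with only 6 to 17 cells per library, had the highest ratio (3.33 to 5.68). The UMIs of 2 genes may be captured unequally, so a ratio is read here only against that of another class.

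**Figure D2:**
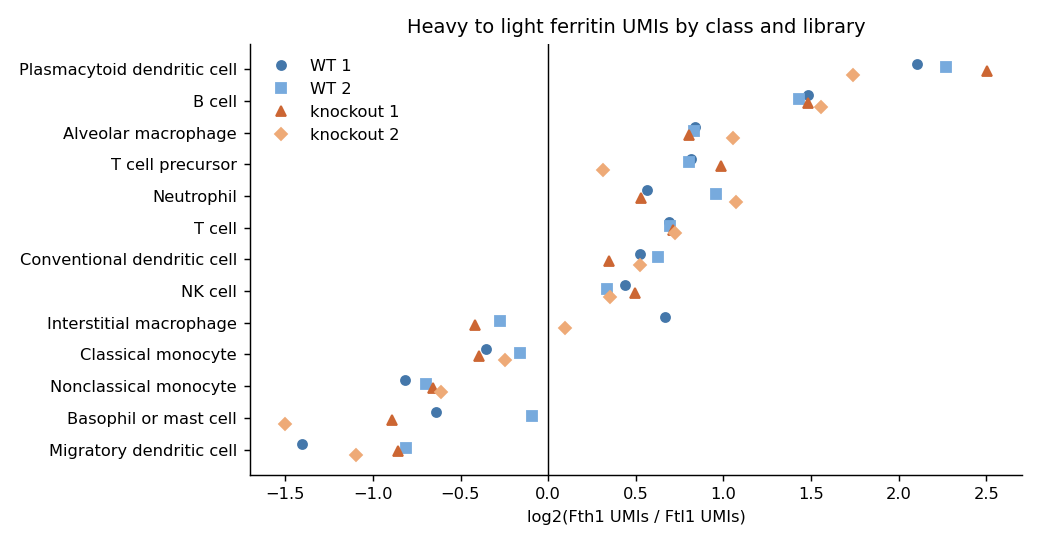
log2 of Fth1 UMIs over Ftl1 UMIs (x axis) in each class (y axis), 1 point per library. B cells and plasmacytoid dendritic cells lie to the right in all 4 libraries and both monocyte classes lie left of 0 in all 4.

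Ferroportin message was high in 1 tested class, the neutrophils. Slc40a1 stood at 331 and 300 CPM in WT neutrophils and at 279 and 280 in knockout neutrophils. In the WT libraries neutrophils held 729 Slc40a1 UMIs, and the 2 classical monocyte sums held 2 in 2852567 UMIs. Their ratio was 448 (95% counting interval 124 to 3707). Alveolar macrophages were at 0 to 2.50 CPM in the 4 libraries. The counts were spread over cells: 49.6% and 48.5% of WT and 41.3% and 42.4% of knockout neutrophils had a UMI, and no cell held more than 2.02% of a library's neutrophil UMIs for Slc40a1. After each cell was thinned to 1500 UMIs, which left out 39 to 84 shallower neutrophils per library, the shares were 37.1% and 35.3% in WT and 32.2% and 32.4% in the knockout. In B cells, which stand for free RNA in droplets, the share was 0.210% or less. Median depths were 2068 to 2278 UMIs in neutrophils and 3413 to 3875 in B cells. One other cell stood out for ferroportin: among the 4 interstitial macrophages of WT 2, 1 cell held 40 of the class's 41 Slc40a1 UMIs.

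Slc11a1, the phagosomal metal pump, was highest in nonclassical monocytes (285 and 251 in WT, 272 and 235 in the knockout). Neutrophils followed at 213 and 198 in WT, and classical monocytes at 94.2 and 120. In alveolar macrophages it was near background, at 1.74 and 1.12 in WT and 1.73 and 5.01 in the knockout, where B cells had 0.895 to 1.34. Hfe, the partner of the transferrin receptor, was at 564 and 398 in WT and 434 and 473 in knockout nonclassical monocytes, and was among the 10 genes that set this class apart most by fold. Classical monocytes had 38.8 to 51.4 for Hfe and alveolar macrophages 8.63 to 27.5. Of nonclassical monocytes, 88.3% and 77.5% in WT had a Hfe UMI, against 0.714% and 0.126% of WT B cells.

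Among the 7 tested classes, Trf, Slc48a1 and Hmox1 were highest in alveolar macrophages and monocytes. Some classes with too few cells to test also carried these genes. Interstitial macrophages, with 10 and 4 cells in WT, had WT means of 1642 CPM for Trf, 553 for Hmox1 and 87.2 for Slc48a1. Their WT mean for Blvrb was 393. In each WT library 1 cell held most of the Hmox1 UMIs of that class. Basophils or mast cells had WT means of 438 CPM for Trf and 80.0 for Slc48a1. Conventional dendritic cells had 257 for Trf, and plasmacytoid dendritic cells 68.7 for Slc48a1. Trf stood at 867 and 854 CPM in WT alveolar macrophages, 450 and 514 in nonclassical and 348 and 428 in classical monocytes, and at 5.37 or less in T and B cells. Slc48a1 was at 93.4 and 111 in WT alveolar macrophages, at 44.2 and 53.2 in classical monocytes and at 15.6 to 27.6 in B, T and NK cells. Blvrb broke this pattern among the tested classes: B cells had 109 and 122 in WT, above alveolar macrophages at 71.8 and 85.0, with T cells at 9.07 and 6.01. Hmox1 was at 115 and 187 in WT alveolar macrophages, at 70.9 and 131 in classical and 64.8 and 163 in nonclassical monocytes, and at 1.64 or less in B, T and NK cells of WT. The ranges of the 3 myeloid classes overlapped for Hmox1.

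Tfrc, the receptor that brings transferrin in, ran the other way. B cells had 19.7 and 25.4 CPM in WT, T cells 10.4 and 9.58, alveolar macrophages 4.88 and 3.73, and classical monocytes 0 and 0.605. Plasmacytoid dendritic cells had the most, at 71.3 to 204. In the T cell precursors of WT 2, Tfrc was at 54.1 in the 163 cells with G2/M genes and at 14.7 in the 289 others, whose median depths were 16264 and 2920 UMIs. This is 1 library with no replicate check.

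These differences were tested in 1 edgeR fit over the WT class sums, with 10562 genes. Alveolar macrophages against the mean of the other 6 classes gave 7 of 10 members higher and 1 lower, where 37.5% of all genes were higher and 25.6% lower. The log2 differences were 2.35 ± 0.07 for Fth1, 1.91 ± 0.06 for Ftl1, 4.07 ± 0.20 for Hmox1, 4.15 ± 0.13 for Trf and -3.33 ± 0.47 for Slc11a1, and the adjusted p was 7.19e-08 or smaller for each. Classical monocytes against B, T and NK cells gave 8 higher and 1 lower, where 31.5% of all genes were higher and 28.5% lower; the lower one was Tfrc, on 1 UMI in monocytes against 318 in the lymphocytes. Neutrophils against classical monocytes gave 5 higher (Slc40a1, Tfrc, Fth1, Slc11a1 and Ftl1) and 4 lower (Hfe, Blvrb, Trf and Slc48a1), where 26.0% of all genes were higher and 32.2% lower. Fth1 differed there by 2.01 ± 0.11 and Hfe by -3.25 ± 0.56 on the log2 scale (adjusted p = 2.45e-15 and 7.95e-05). The size depended on the setting: over 5 alternatives Fth1 was at 1.29 to 2.23, and Ftl1, at 0.98 in the main fit, at 0.27 to 1.11. The fitted Tfrc difference rests on 12 neutrophil UMIs against 1. Scaling by total UMIs moved the median of all genes in that contrast from -0.25 to -0.96 and made Hmox1 a further lower member (-1.11, adjusted p = 0.00258). In the knockout libraries Slc48a1 did not pass there (-0.30, adjusted p = 0.279). With neutrophils left out of the classes set against alveolar macrophages, Slc40a1 was higher there (2.30, adjusted p = 0.00515), on 10 UMIs in WT.

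Between genotypes, ferritin rose in knockout alveolar macrophages and no other member passed the test there. Fth1 was at 13871 and 15742 CPM in WT and at 21421 and 20665 in the knockout. Means were 14807 ± 1323 and 21043 ± 535 (SD, n = 2), and both knockout libraries lay above both WT libraries. On the log2 scale Fth1 rose by 0.58 ± 0.11 (SE; adjusted p = 0.000512 by edgeR). Ftl1 was at 7760 and 8850 in WT and at 12280 and 9957 in the knockout, again without overlap. Its rise was 0.49 ± 0.11 on the log2 scale (adjusted p = 0.00733 by edgeR). In this class 3.23% of the 8697 genes tested were higher and 2.47% lower; of the 7 members tested 2 were higher and 0 lower. The other 3 members, Slc40a1, Slc11a1 and Tfrc, were too low to be tested.

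Fth1 passed under each of the 14 alternatives run (log2 fold change 0.46 to 0.66). Ftl1 lost its call without WT 1 (0.37, adjusted p = 0.0682) and without knockout 1 (0.32, adjusted p = 0.265). Per cell, the median share of a cell's UMIs that came from Fth1 and Ftl1 was 1.90% and 2.08% in WT and 3.10% and 2.93% in knockout alveolar macrophages.

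**Figure D3:**
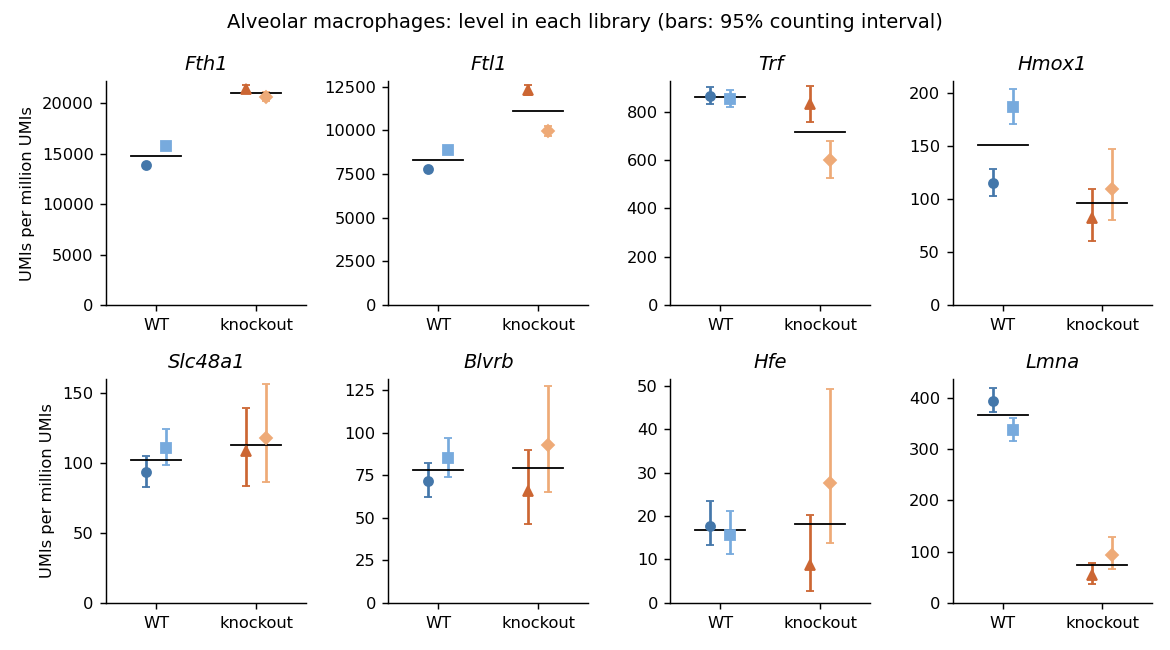
CPM (y axis, from 0) in alveolar macrophages of each library for the 7 tested members and Lmna; points are libraries with their 95% counting interval and black lines are group means. For Fth1 both knockout libraries (21421 and 20665) lie above both WT libraries (13871 and 15742), and Lmna is lower in both knockout libraries.

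The other tested members did not pass the test. For Trf and Hmox1 both knockout libraries lay below both WT libraries, as did 31.5% of all genes with at least 40 UMIs. Trf was at 867 and 854 in WT and 830 and 599 in the knockout (log2 fold change -0.19 ± 0.14, adjusted p = 0.497 by edgeR). Slc48a1 (0.21 ± 0.18), Blvrb (0.05 ± 0.21) and Hfe (0.05 ± 0.43) overlapped between genotypes. These intervals are wide, and a miss of the threshold does not show that the genotypes were alike.

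Hmox1 was at 115 and 187 CPM in WT and at 82.8 and 110 in knockout alveolar macrophages, or -0.61 ± 0.30 on the log2 scale (adjusted p = 0.324). A few cells held much of the WT count. Cells with at least 10 Hmox1 UMIs, a limit set after the values were seen, numbered 2 of 178 in WT 1 and 4 of 201 in WT 2. They held 38.1% and 67.4% of the class's Hmox1 UMIs. The knockout libraries had 0 of 48 and 0 of 24 such cells, counts that allow shares of up to 6.25% and 12.5%, while the WT shares were 1.12% and 1.99%. Without these cells Hmox1 was at 72.5 and 63.2 in WT, and the log2 value was 0.55. The cells were picked by their own Hmox1 count and all came from WT, so leaving them out could only lower WT, and this value is a description with no test. With those cells kept, the lower level passed the test without WT 1 (-0.94, adjusted p = 0.00335) and with no filter on low counts (-0.65, adjusted p = 0.0166).

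The 6 cells were also rich in ferritin. Fth1 and Ftl1 made up 5.56% to 9.57% of their UMIs, with a median of 6.49%, where the other cells had medians of 1.89% and 2.08% in WT and highest values of 5.25% and 6.68%. The metallothioneins Mt1 and Mt2, metal-binding proteins looked at after the values were seen, had 1 to 833 UMIs together in these 6 cells, with a median of 478. In the rest of each library the median was 4 to 8, and single cells reached 426 and 363 in WT and 202 and 273 in the knockout. The 6 cells were deeper, with a median of 19687.5 UMIs in all against 16564.5 and 13461 in the other WT cells. Leaving the 6 cells out moved the Fth1 log2 fold change from 0.58 to 0.65 and that of Ftl1 from 0.49 to 0.57. Single cells with at least 10 Hmox1 UMIs were also found in other classes. In neutrophils of knockout 1, 1 cell held 61 of 118 Hmox1 UMIs, and 1 of 174 classical monocytes of WT 2 held 48.6% of those of its class; neither had a Mt1 or Mt2 UMI. The 7 such nonclassical monocytes had 0.774% to 1.96% ferritin. Of the cells of WT 1 that took no class, 3 had 108, 52 and 176 Hmox1 UMIs and at least 6.35% ferritin, with 400, 475 and 349 Mt1 UMIs. The other cells without a class that had at least 10 Hmox1 UMIs did not share this. They numbered 1 in WT 2, 2 in knockout 1 and 4 in knockout 2. Their ferritin was 0.462% to 3.92%, with at most 13 Mt1 UMIs.

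**Figure D4:**
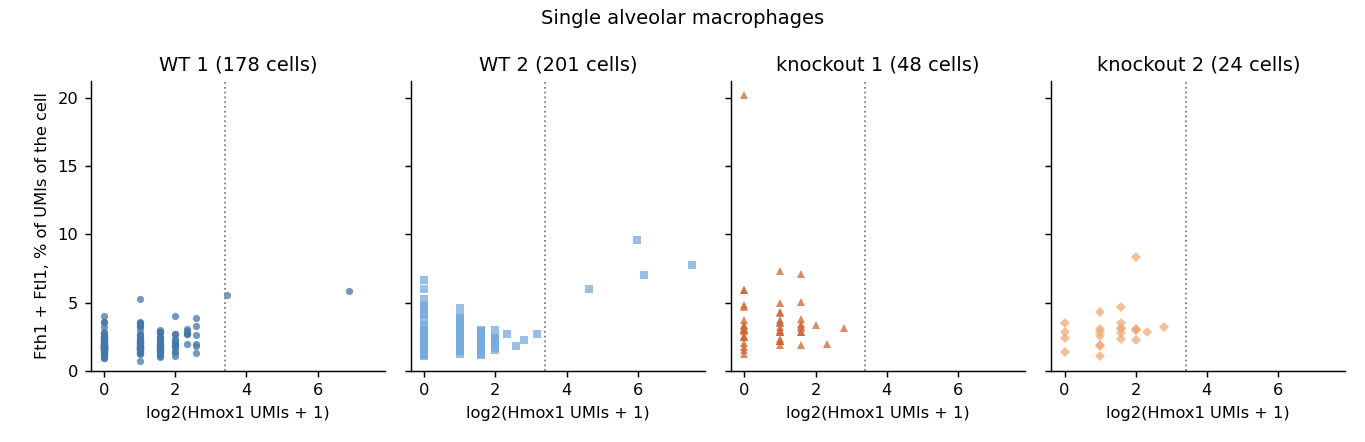
Each point is 1 alveolar macrophage: log2(Hmox1 UMIs + 1) on the x axis and the percent of its UMIs from Fth1 and Ftl1 on the y axis, 1 panel per library; the dotted line marks 10 Hmox1 UMIs. The 6 cells right of the line are all from WT libraries and have 5.56% to 9.57% ferritin; 1 knockout 1 cell stands alone at 20.2% with 1769 UMIs in all.

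Other markers moved in the same libraries. The 13 genes of the dissociation response are immediate early and heat shock genes that rise while tissue is taken apart. They summed to 6743 and 5320 CPM in WT alveolar macrophages and to 3765 and 3225 in the knockout. Of the 11 tested, 6 were lower and 0 higher, where 2.47% of all genes were lower and 3.23% higher. Classical monocyte markers, 5 genes, summed to 631 and 669 in WT and to 200 and 233 in the knockout. The 8 alveolar macrophage markers summed to 4941 to 5162 in the 4 libraries. Erythroid markers were at 0 in all 4. The part of these values in the ferritin result was not tested.

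In the other 6 classes 0 members passed the test, with edgeR and with DESeq2. At an unadjusted p under 0.05 edgeR had 2 of 8 members tested in nonclassical monocytes, where 818 of all 7962 genes did so. Neutrophils had 2 of 8, with 463 of all 5677 genes, and B cells 1 of 6, with 798 of all 9711 genes. The other 3 classes had 0. The share of all genes called in either direction was 0.567% in classical monocytes, 0.754% in nonclassical monocytes, 0.581% in neutrophils, 0.752% in B cells, 0.97% in T cells and 0.739% in NK cells. Fth1 had log2 fold changes of 0.39 ± 0.13 in nonclassical monocytes (adjusted p = 0.234) and 0.40 ± 0.20 in neutrophils (adjusted p = 0.664), and of 0.03 to 0.15 in the other 4. Ftl1 had 0.39 ± 0.17 in neutrophils (adjusted p = 0.588), 0.27 ± 0.13 in nonclassical and 0.23 ± 0.11 in classical monocytes, and -0.03 to 0.12 in B, T and NK cells. Neutrophil Fth1 passed without WT 2 (0.75, adjusted p = 0.00432).

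By level, Fth1 was above both WT libraries in both knockout libraries in 7 of 7 classes and Ftl1 in 6 of 7. The share of all genes with at least 40 UMIs that did so was 20% in alveolar macrophages, 21.2% in classical and 17.8% in nonclassical monocytes, 23.0% in neutrophils, 29.2% in B cells, 33.0% in T cells and 20.2% in NK cells. The classes come from the same 4 libraries, so these 7 are not independent.

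Hmox1 in neutrophils was at 51.2 and 42.5 in WT and 111 and 53.6 in the knockout (log2 fold change 0.75 ± 0.31, adjusted p = 0.588), and at 0.16 without the 1 knockout cell with at least 10 Hmox1 UMIs, whose removal could only lower the value; it passed without knockout 2 (1.18, adjusted p = 0.000618). In classical monocytes the Hmox1 change was -0.18 ± 0.42 and in nonclassical monocytes 0.28 ± 0.70, where it passed without WT 2 (1.09, adjusted p = 1.42e-05). In that class 3 cells of knockout 1 held 68.1% of its Hmox1 UMIs. Trf had 0.29 ± 0.12 in nonclassical monocytes (adjusted p = 0.363) and -1.27 ± 0.47 in B cells (adjusted p = 0.385), where it was at 5.37 or less. Slc40a1 in neutrophils was at -0.21 ± 0.15 (adjusted p = 0.778), with both knockout libraries below both WT libraries, as were 14.6% of genes.

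**Figure D5:**
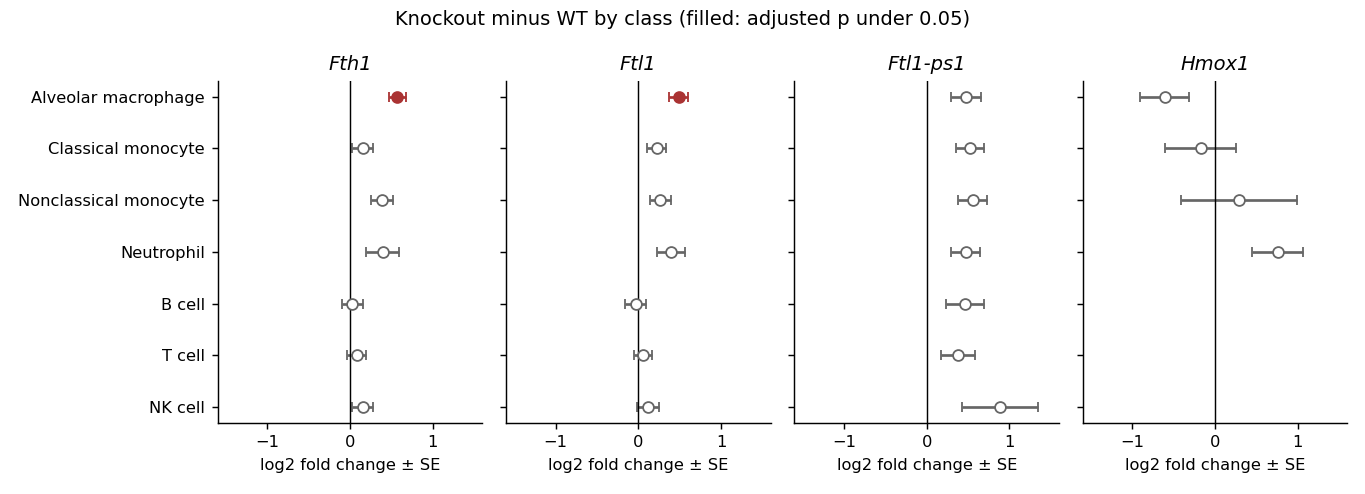
log2 fold change of knockout over WT with its SE (x axis) in the 7 tested classes (y axis) for Fth1, Ftl1, the ferritin copy Ftl1-ps1 and Hmox1; filled points passed an adjusted p of 0.05. Fth1 (0.58) and Ftl1 (0.49) passed in alveolar macrophages, and Hmox1, which was too low to test in lymphocytes, has opposite signs in alveolar macrophages (-0.61) and neutrophils (0.75).

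Whether the ferritin change was particular to alveolar macrophages was tested as the difference between their effect and that of the other classes in 1 fit. Of the 10 members 0 passed, where 2.85% of 10871 genes did. At an unadjusted p under 0.05 edgeR had 1 member, Hmox1, and the share of all genes at that threshold was not counted. The difference was 0.21 ± 0.13 for Fth1 (adjusted p = 0.477), 0.15 ± 0.11 for Ftl1 (adjusted p = 0.565) and -1.03 ± 0.40 for Hmox1 (adjusted p = 0.219). Without the 5% of cells with most UMIs the Hmox1 difference was -0.21 (adjusted p = 0.900), and without knockout 1 it was -0.60 (adjusted p = 0.575). Leaving out 1 library gave 0.17 to 0.31 for Fth1 and 0.09 to 0.28 for Ftl1. The ferritin rise passed the test in alveolar macrophages, and its difference from the other classes did not.

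The wider pathway was counted in 10 lists of 65 genes for uptake, storage, export, iron regulatory proteins, mitochondrial iron, heme synthesis and breakdown, siderophore binders, transcription factors and ferroptosis defence. In alveolar macrophages 43 were tested, with 1 higher and 1 lower, where 3.23% of all genes were higher and 2.47% lower; 1 of 43 is a smaller share than either. Their median log2 fold change was 0.10 and that of all genes 0.00. In the other 6 classes 28 to 41 were tested and 0 passed. The higher gene was Steap3, a reductase of endosomal iron, at 10.8 and 3.35 CPM in WT and 22.4 and 27.5 in the knockout (log2 fold change 1.84 ± 0.49, adjusted p = 0.0227). Its sums were 31, 9, 13 and 11 UMIs, and it lost its call without any 1 of the 4 libraries. The lower gene was Flvcr2, a transporter first described for heme and among the 10 genes that set alveolar macrophages apart most by fold, at 104 and 82.7 in WT and 58.7 and 47.6 in the knockout (-0.72 ± 0.22, adjusted p = 0.0450), which lost its call without WT 1 (adjusted p = 0.340), knockout 1 (0.0815) or knockout 2 (0.169) and with DESeq2 (0.301).

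Among the rest, Lrp1, the receptor for heme bound to hemopexin, was at -0.44 ± 0.14 (adjusted p = 0.0557) and Hmox2, the constitutive heme oxygenase, at 0.56 ± 0.19 (adjusted p = 0.0711). Gpx4, which clears lipid peroxides, was at 0.36 ± 0.13 (adjusted p = 0.109). The ferritin receptor for autophagy, Ncoa4, was at -0.16 ± 0.14, and the iron regulatory proteins Aco1 and Ireb2 at 0.15 ± 0.21 and -0.39 ± 0.26. None of the 9 tested genes of heme synthesis passed (smallest adjusted p = 0.690).

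Genes with the most similar pattern were found by Pearson correlation of log2(CPM + 1) over 28 class and library sums among 10160 genes, which share libraries and depth. Fth1 was most like Bst1 (r = 0.95), Ftl1 like Sirpa (0.99), Hmox1 like Ltbr (0.98) and Slc40a1 like Nlrp12 (0.98), S100a8 (0.98) and Ly6g (0.97). Slc11a1 was most like AC163018.1 (0.99), Hfe like Grk3 (0.97), Trf like Cd68 (0.98), Slc48a1 like Slc39a1 (0.97), Blvrb like Cd83 (0.92) and Tfrc like A830010M20Rik (0.88).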

How the data were processed

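Lung CD45.2+ cells of 2 WT and 2 knockout mice aged 10 weeks were profiled with Chromium 3′ kits. What the authors deposited are whole-number UMI counts with no scaling; per the submitters' processing notes the authors used Cell Ranger 3.0.2, Seurat 3.0.0 and build mm10, with no role given. Barcodes under 200 genes or above 10% mitochondrial UMIs were dropped. For each of 15 classes the share of its marker genes with at least 1 UMI was taken in each cell. A cell took the class with the highest share, with at least 2 markers detected and every other class under 50% of that share. This also drops many mixed droplets, and no doublet caller was run. CPM were computed here from the counts. Counts were summed per class and library and tested in classes with at least 20 cells in every library with edgeR 4.0.16 in R 4.3.3 (filterByExpr, TMM, robust quasi-likelihood test, Benjamini-Hochberg 0.05). DESeq2 1.42.0, other scalings, filters and gates, and leaving out each library were alternatives. SE is the log2 fold change divided by the root of F. Intervals of counts and shares are exact at 95% and cover counting error only; a count of 0 allows 3 counts. Named genes were the members, Lmna, ferritin copies, the 3 most similar genes per member, and, per pathway list, those past the threshold or up to 3 by smallest p. The members and lists were chosen with earlier results of these data known. The tests were checked on simulated counts.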

Additional observations from a re-analysis of the deposited data

Results flagged for a closer look

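By edgeR's test of the difference, the change in alveolar macrophages differed from that in other tested classes for 8 of 94 genes (8.51%). The 94 were the members, Lmna and list genes tested, and 2.85% of all 10871 genes differed. The lists also hold dissociation, cell cycle and T cell genes and were chosen with earlier results known, so 8.51% is not a share of iron genes. Of the 10 members 0 passed. Steap3, the endosomal iron reductase, had a difference of 2.10 ± 0.57 on the log2 scale (adjusted p = 0.0278). It rests on 31, 9, 13 and 11 UMIs in alveolar macrophages, and it did not pass without WT 2 (1.30, adjusted p = 0.386), knockout 1 (1.85, 0.323) or knockout 2 (2.48, 0.132). Lmna, the targeted gene, had -1.63 ± 0.44 (adjusted p = 0.0497), which did not pass with total scaling (-1.59, adjusted p = 0.0602), nor without WT 2 (adjusted p = 0.248), knockout 1 (0.538) or knockout 2 (0.203). The other 6 belong to the dissociation response: Fosb (-1.57, adjusted p = 0.0204), Zfp36 (-0.96, adjusted p = 0.0240), Ier2 (-1.13, adjusted p = 1.42e-06), Junb (-0.87, adjusted p = 0.000399), Nr4a1 (-1.38, adjusted p = 0.00264) and Egr1 (-1.61, adjusted p = 0.0202). Of these 6, only Ier2 passed under all 8 alternatives; without WT 1 the values of Fosb (-1.05, adjusted p = 0.395), Zfp36 (-0.81, 0.230), Junb (-0.62, 0.113) and Egr1 (-1.33, 0.244) did not pass, nor without knockout 1 did Nr4a1 (-1.09, 0.525).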

How the results depend on the processing

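Results counted here are those of the members and Ftl1-ps1, of Lmna, Steap3 and Flvcr2 in alveolar macrophages, and the Lmna difference of effects. Lmna in NK cells and the differences of effects of Steap3 and the dissociation genes, several of which lost their call above, are not counted. Of 32 called results 0 turned sign and 5 lost their call under at least 1 alternative. Of 68 not called, 35 turned sign and 10 gained a call. The 32 include 8, 9 and 9 level differences from the WT contrasts, for which no library was left out. The others are genotype results. Among them Fth1 and Lmna in alveolar macrophages kept their call. Ftl1, Steap3 and Flvcr2 in that class and the Lmna difference of effects lost it. In alveolar macrophages, leaving out 1 library gave 1 to 2 members higher and 0 to 1 lower (Hmox1, without WT 1), and no filter on low counts gave 1 lower. In the other classes, 1 member passed with the replicate number as a block (Fth1 in nonclassical monocytes, 0.39, adjusted p = 0.0412), and leaving out 1 library gave 0 to 2. For the difference of effects, no filter gave 2 members (Hmox1 -1.10 and Trf -0.54). Genes called in alveolar macrophages numbered 281 higher and 215 lower, 98 and 78 with DESeq2, 206 and 285 with total scaling, 249 and 199 with the replicate block, and 113 and 114 without WT 1. Values that turned sign were Hmox1 in alveolar macrophages (0.059 without the 5% of cells with most UMIs, 0.55 without cells of at least 10 Hmox1 UMIs), Blvrb (-0.022 with total scaling, -0.19 to 0.30 leaving out 1 library), Trf (-0.46 to 0.018) and Hfe (-0.022 with total scaling, -0.066 without the top cells, -0.88 to 0.78 leaving out 1 library). Leaving out 1 library also turned Fth1 in classical monocytes (-0.010 to 0.33), B cells (-0.026 to 0.088) and T cells (-0.0059 to 0.17), Ftl1 in B cells (-0.11 to 0.054; 0.041 with total scaling) and T cells (-0.028 to 0.15), and Hmox1 in classical (-0.56 to 0.39; 0.26 without the high cells) and nonclassical monocytes (-0.28 to 1.09; -0.11 without the top cells, -0.13 without the high cells). Hmox1 in neutrophils against classical monocytes was 0.43 in the knockout libraries. The causes were not tested. Same-numbered libraries deviated together with correlations of 0.01 to 0.12, and the labels give the numbers no meaning. No leave-one-out was run for WT levels, where 1 library per class would remain. The cells with at least 10 Hmox1 UMIs and the summed ferritin copies were added after seeing the data. The 24 to 48 knockout alveolar macrophages limit members with few UMIs.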

Other observations

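Ftl1-ps1, a near copy of Ftl1 at chr13:74399694-74407346 on the plus strand of mm10, had log2 fold changes of 0.38 to 0.89 in the 7 classes, and none passed the test. In alveolar macrophages it was at 110 and 143 CPM in WT and 190 and 140 in the knockout (0.48 ± 0.18, adjusted p = 0.133 by edgeR). Reads of Ftl1 and its copy may be split unevenly. In interstitial macrophages, with 4 to 10 cells per library and no test, Hmox1 was at 568 and 538 in WT and 131 and 67.0 in the knockout, and Trf at 1470 and 1815 against 392 and 402. Ferritin means were higher in the knockout there, at 8741 ± 765 in WT and 12437 ± 1780 in the knockout for Fth1 (SD, n = 2). For Ftl1 they were 7892 ± 2885 and 14362 ± 5546. In each WT library 1 cell held 81.2% and 87.5% of the Hmox1 UMIs of that class.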
